A study of Gasterosteus aculeatus with 17 samples.

Results

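The gills of freshwater and marine three-spined sticklebacks were compared while both were in marine water. Of the 17 fish in the series, the 8 in marine water were taken by their labels: 4 freshwater fish (fish 1 to 4) and 4 marine fish (fish 2 to 5). The freshwater fish came from a lake and had been moved into marine water for 4 days. The marine fish came from a sea coast and stayed in marine water, held captive like the moved fish. Population of origin and a recent change of water therefore cannot be told apart in this comparison. All fish were wild males in breeding dress, and each library of polyadenylated RNA came from the gills of a separate individual, with 1 lake and 1 coast standing for the 2 populations. The other 9 fish were all in fresh water, 4 freshwater fish that stayed there and 5 marine fish that had spent 4 days there. They entered the same statistical fit and are used below as fish outside the comparison.

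The gill is where a stickleback exchanges gases, salts and nitrogen waste with the water. In sea water its ionocytes, cells rich in mitochondria and the sodium pump, secrete salt, and in fresh water ionocytes take salt up. Sea sticklebacks have founded lake populations many times, and the 2 forms are a classic case of inherited differences between habitats. The design of the study asks how far gill expression depends on the population and how far on the water around the fish. With both populations in marine water, what differs is the origin of the fish and their recent move, not the salinity at sampling.

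The deposited table names genes by Ensembl ID only, and these IDs could not be paired with names in the reference used here. No gene is therefore given a function, and ionocyte or other cell type markers could not be examined, so the tissue label was not checked against them. In bulk tissue, fewer cells of a type and less RNA per cell cannot be told apart. Total counts were 23736661 to 27949237 in freshwater fish and 17993109 to 19450343 in marine fish. Depth thus moved with population (exact two-sided permutation test, p = 0.0286, the smallest 4 against 4 fish allow, 0.0476 after Benjamini-Hochberg adjustment over 5 library measures). Genes with at least 1 count numbered 19859 to 20164 in freshwater fish and 19468 to 20697 in marine fish. After every library was thinned to 6932688 counts, these ranges were 19098 to 19405 in freshwater fish and 18890 to 20041 in marine fish (exact permutation p = 0.914, also after adjustment).

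Among the 8 fish, marine fish 4 and 5 and freshwater fish 3 stood apart in ways that bear on the results. Expression is given as CPM, the counts of a gene scaled to a common library size. On the first principal component of the 8 fish, which held 44.8% of the variance in log2 CPM, freshwater fish lay close together between 38.7 and 50.3. Marine fish 2, 3 and 4 lay at -49.6, -55.4 and -65.7, and marine fish 5 at -13.7, between the populations. The second component held 16.1% and separated marine fish 4, at -64.2, from marine fish 2 and 3, at 37.0 and 31.6. Marine fish 4 also had the most genes detected, and 362 genes in it were more than 2-fold above the other 3 marine fish, against 41 in fish 2, 54 in fish 3 and 137 in fish 5. Among freshwater fish the number was highest in fish 3, at 107, against 29 to 73 in the other 3 fish. Marine fish varied more: the biological coefficient of variation was 22.8% in freshwater fish and 29.9% in marine fish, and the SD of log2 CPM was larger in marine fish for 12130 of 18238 genes (66.5%).

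**Figure D1:**
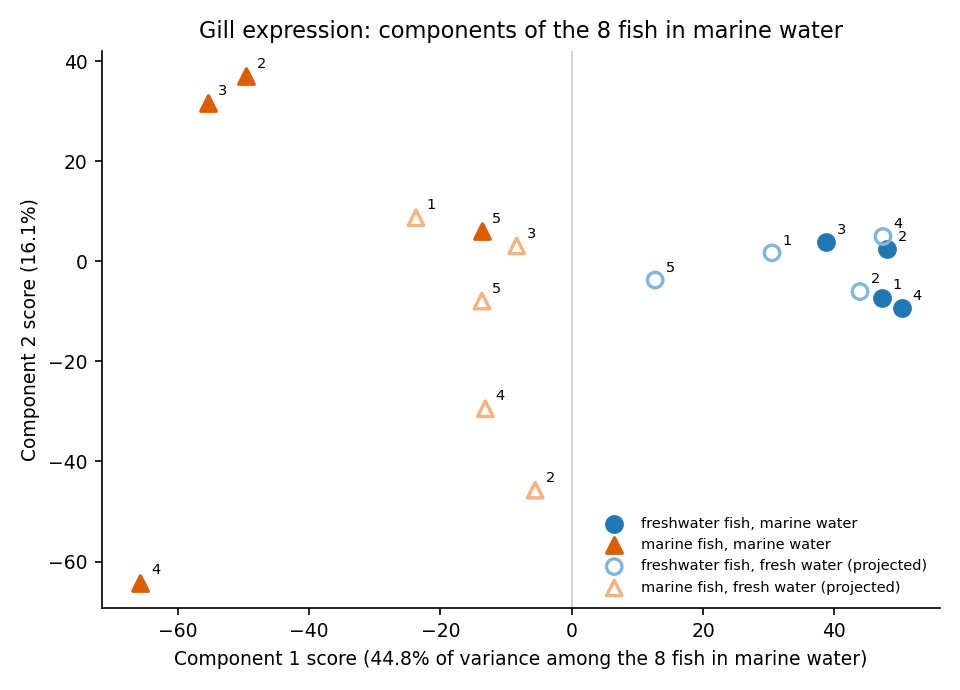
Principal component scores of log2 CPM, 1 point per fish with its number. Filled points are the 8 fish in marine water that define the components (circles freshwater, triangles marine), and open points are the 9 fish in fresh water placed on the same axes afterwards. Freshwater fish in marine water sit between 38.7 and 50.3 on the first component, and marine fish 5 sits at -13.7, apart from the other 3 marine fish.

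More than 1 in 5 genes differed between the populations in marine water, mostly by less than 2-fold. Of 18238 genes tested, 4122 (22.6%) had an adjusted p below 0.05 by edgeR's quasi-likelihood test, with freshwater fish the higher ones for 2007 (11.0%) and the lower ones for 2115 (11.6%). Without adjustment, 6618 genes (36.3%) had a p below 0.05. The median absolute log2 difference of the called genes was 0.84, or 1.79-fold, with a middle range of 0.63 to 1.16. Called differences under 1 log2 unit numbered 168 and 1041 higher genes and 255 and 1181 lower genes, in the bins under 0.5 and from 0.5 to 1. Differences over 4 log2 units were found for 49 genes, 26 higher and 23 lower in freshwater fish. Over all tested genes the median log2 difference was 0.02, a value that the scaling of the libraries sets near 0.

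The 4 freshwater fish and the 4 marine fish did not overlap in CPM for 4957 genes (27.2% of those tested). Among the 4122 called genes this held for 3350, 1696 of the higher and 1654 of the lower genes. The other 1607 genes without overlap were not called. Because the test and the overlap use the same values, the count among called genes describes them and is no separate support.

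**Figure D2:**
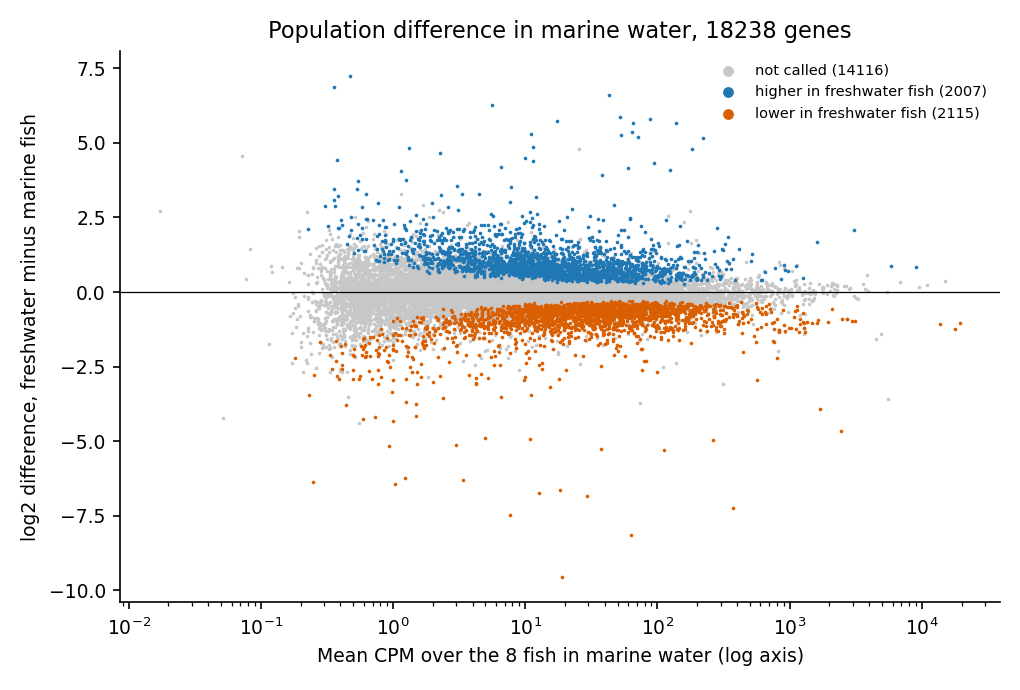
Each point is 1 of 18238 tested genes, with its mean CPM over the 8 fish in marine water on a log axis and the log2 difference, freshwater minus marine fish. Genes called at an adjusted p below 0.05 are coloured (2007 higher, 2115 lower), and the lower genes reach further into the abundant end at the right.

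Abundant genes were more often lower in freshwater fish, and rare genes more often higher. The tested genes were put into 4 equal classes by mean CPM. In the class with the highest (34.4 CPM and above), 542 genes were higher and 923 lower, so 37.0% of the called genes were higher. In the class with the lowest (under 3.57 CPM), 305 were higher and 199 lower, or 60.5% higher. Calls were also more frequent among abundant genes, 32.1% against 11.1%, while the called differences were smaller there, at a median of 0.72 against 1.48 log2 units. In the lowest class higher genes outnumbered lower genes in all 20 alternative analyses, which share these fish and are no separate support. The stricter filter (5 CPM or more in at least 4 fish) left only 25 higher and 5 lower calls in this class. Its counts also moved with single fish. The higher genes there numbered 181 without marine fish 2 and 197 without marine fish 3, and the lower genes 131 without freshwater fish 1 and 130 without freshwater fish 4. Calls over all genes also fell in these fits, from 4122 to 3027, 2921, 3065 and 2942 in the same order. With low counts, a rare gene needs a larger difference to pass the test.

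By calls, the tilt was steeper among the 500 most abundant genes. Of the 500 genes with the highest mean CPM (283 CPM and above), 31 (6.2%) were higher in freshwater fish and 122 (24.4%) were lower. By more than 2-fold, 11 were higher and 51 lower. Among the top 100, 5 were higher and 25 lower. Of the 10 most abundant genes, 3 were lower by more than 2-fold, 2 were higher by less than 2-fold and 5 were not called. Over the 20 alternatives, the higher genes among the top 500 numbered 20 to 55 and the lower genes 92 to 163. Without marine fish 4 they were 20 and 109, and with limma voom 55 and 163. In the 9 fish held in fresh water, 42 of the same 500 genes were called higher and 28 lower in freshwater fish, and of the top 100, 5 higher and 10 lower. By sign alone, called or not, 305 of the 500 genes had a log2 difference below 0 in marine water and 282 in fresh water, with medians of -0.12 in marine water and -0.05 in fresh water. The counts of calls and the signs thus pointed in opposite directions for the 500 genes in fresh water. In marine water, 56 of the top 100 genes, 22 of the top 50 and 4 of the top 10 had a log2 difference below 0. Their medians were -0.04, 0.06 and 0.20. By sign the tilt was thus not seen in the top 50, although 3 of these genes were called higher and 11 lower. Whether the tilt differs between the waters was not tested.

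**Figure D3:**
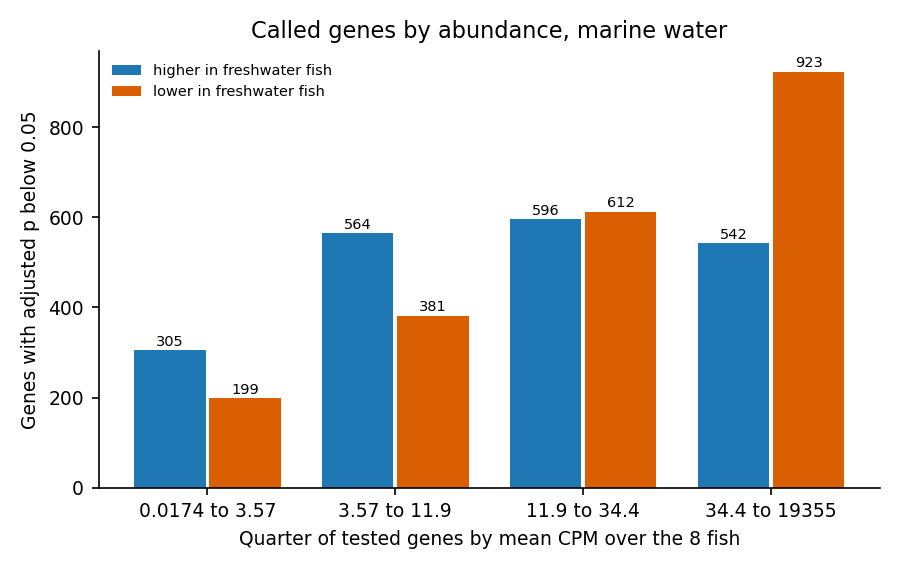
Number of genes called higher and lower in freshwater fish in marine water, in 4 equal classes of tested genes by mean CPM over the 8 fish. Higher genes lead in the rarest class (305 against 199) and lower genes in the most abundant class (923 against 542).

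Together the called genes made up a different part of the gill transcript pool in each population. The 2007 higher genes held 12.4% to 13.6% of the counts of tested genes in the 4 freshwater fish, and 5.50%, 5.96%, 5.65% and 7.72% in marine fish 2, 3, 4 and 5. The 2115 lower genes held 16.0% to 18.3% in freshwater fish, and 30.9%, 31.0%, 30.2% and 26.0% in marine fish 2 to 5. Marine fish 5 was the marine fish closest to the freshwater fish in both sums. These shares were taken over genes chosen for their difference in the same fish, so they describe the calls and are no test. The 10 most abundant genes of each library held 11.0% to 11.5% of its counts in freshwater fish and 12.5% to 14.5% in marine fish (exact permutation p = 0.0286, adjusted 0.0476), and the 100 most abundant held 28.7% to 30.03% in freshwater fish and 30.7% to 33.8% in marine fish, with the same p. In fresh water the 10 most abundant genes held 12.5% to 12.9% in freshwater fish and 13.0% to 19.4% in marine fish. The 100 most abundant held 30.9% to 32.2% in freshwater fish and 32.5% to 35.6% in marine fish there. In both shares freshwater fish in fresh water thus lay above those in marine water and overlapped the marine fish in marine water. Total counts differed between the populations in marine water, and the part of depth in these shares was not tested.

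The fish outside the comparison carried the same gene sets in the same order. In fresh water the 2007 higher genes held 9.92% to 13.8% of counts in freshwater fish and 7.24% to 8.43% in marine fish. The 2115 lower genes held 17.6% to 21.98% in freshwater fish and 24.8% to 30.2% in marine fish. The populations did not overlap in either sum. Total counts ran from 23609866 to 28960967 in these freshwater fish and from 6932688 to 16108405 in these marine fish. Depth thus moved with population in fresh water too. Its part in these sums and in the comparisons of the waters below was not tested. Placed on the first component of the 8 fish in marine water, the fish in fresh water lay at 12.7 to 47.4 (freshwater) and at -23.7 to -5.55 (marine). Fish placed on a component that they did not define lie nearer to 0 for that reason alone, so these positions are no measure of a difference between the waters.

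Larger differences in marine water came with larger differences in fresh water. Freshwater minus marine fish in fresh water was tested on the 9 other fish, where 2778 genes (15.2%) were called. Of the 4122 genes called in marine water, 3627 (88.0%) had the same sign there, against 62.6% of the genes not called. The share grew from 79.7% of genes with a log2 difference under 0.5 in marine water, through 87.1%, 91.6% and 92.3%, to 93.9% of those over 4. For the 49 genes over 4 log2 units in marine water the median was 5.25 log2 units in marine water and 3.89 in fresh water, and 35 of the 49 were also called in fresh water in the same direction. For the 1221 genes between 1 and 2 log2 units, the medians were 1.25 in marine water and 0.58 in fresh water, and 370 were called in both.

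Genes picked for their size in marine water are expected to be smaller in any other set of fish, so the smaller fresh-water values are no measure of an effect of water. The genes called in the same direction in both waters numbered 1164, 28.2% of the genes called in marine water and 41.9% of those called in fresh water, of which 749 were higher and 415 lower in freshwater fish. A further 6 were called in opposite directions. The fit over all 17 fish gives both comparisons 1 common estimate of spread per gene. Fitted apart, 510 genes were called in both. All 8 freshwater fish and all 9 marine fish were fully separated in CPM for 745 genes (4.08% of those tested), with freshwater fish above marine fish for 501 and below them for 244.

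**Figure D4:**
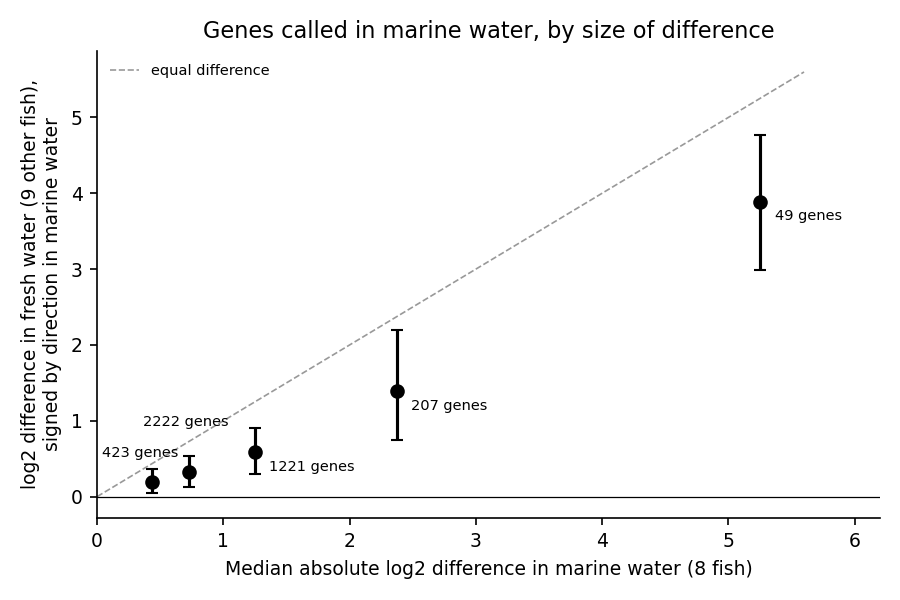
Genes called in marine water grouped by the size of their log2 difference (bins under 0.5, 0.5 to 1, 1 to 2, 2 to 4 and over 4). Points are medians in marine water (x, 8 fish) and fresh water (y, 9 other fish, signed by the direction in marine water), bars run between the lower and upper quartiles, and every point lies below the dashed line of equal difference.

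Very few genes were silent in 1 population and present in the other. Counts were 0 in all 4 marine fish and above 0 in all 4 freshwater fish for 11 genes, and 0 in all 4 freshwater fish and above 0 in all 4 marine fish for 4 genes. None of these 11 and 4 genes reached more than 70 counts in any fish. With all libraries thinned to equal depth the numbers were 9 and 18. Genes at 0 in all freshwater fish and above 0 in at least 1 marine fish numbered 591, of which 323 were seen in marine fish 4 alone and 24 to 56 in each of the other 3 marine fish. In the reverse direction, 300 genes were at 0 in all marine fish and above 0 in at least 1 freshwater fish. A count of 0 at these depths covers counting error only and does not show absence.

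The individual fish contributed unevenly to the called genes. Marine fish 5 was the marine fish nearest to the freshwater mean for 2708 of the 4122 called genes (65.7%), against 489, 469 and 456 for marine fish 2, 3 and 4. Freshwater fish 3 was the freshwater fish nearest to the marine mean for 1965 genes (47.7%), against 630 to 784 for the other 3. Leaving out marine fish 5 gave 4800 called genes, and leaving out freshwater fish 3 gave 4025. Leaving out marine fish 4 gave 2873, with 1283 higher and 1590 lower. Called in the same direction in all 8 analyses that left out 1 of the 8 fish were 2241 genes (54.4%), 1056 of the higher and 1185 of the lower genes.

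The following genes are described fish by fish, the 2 with the smallest p in each direction among genes that differed more than 4-fold, averaged at least 20 CPM in the higher population and did not overlap. That rule was met by 39 higher and 20 lower genes. ENSGACG00000001373 had 109, 99.1, 113 and 134 CPM in freshwater fish 1 to 4, and 3.98, 5.27, 8.52 and 7.66 CPM in marine fish 2 to 5. The freshwater fish were nearly alike and every one was more than 10 times as high as any marine fish. The means were 114 ± 14.5 CPM in freshwater fish and 6.36 ± 2.098 CPM in marine fish (SD, n = 4 each), and the log2 difference was 4.15 (SE 0.37, adjusted p = 2.46e-05 by edgeR). In fresh water it had 57.5 to 121 CPM in freshwater fish and 6.95 to 24.4 CPM in marine fish, the highest in marine fish 2, and the log2 difference there was 2.92 (SE 0.33, adjusted p = 1.22e-04 by edgeR).

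ENSGACG00000019975 had 83.3, 114, 101 and 124 CPM in freshwater fish 1 to 4, and 15.8, 21.4, 13.9 and 25.4 CPM in marine fish 2 to 5. The groups were well apart, with no fish of either between 25.4 and 83.3 CPM. The log2 difference was 2.46 (SE 0.22, edgeR adjusted p = 2.46e-05). In fresh water it was 2.32 (SE 0.21, edgeR adjusted p = 3.11e-05), with 66.6 to 137 CPM in freshwater fish and 17.1 to 22.6 CPM in marine fish. Its level in each population was thus nearly the same in both waters.

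ENSGACG00000003404 was the more abundant of the 2 lower genes. It had 14.6, 13.1, 19.96 and 17.6 CPM in freshwater fish 1 to 4, and 602, 749, 255 and 447 CPM in marine fish 2 to 5. Every freshwater fish was under 20 CPM, and marine fish varied among themselves by close to 3-fold. The means were 16.3 ± 3.07 CPM in freshwater fish and 513 ± 212 CPM in marine fish (SD, n = 4 each), and the log2 difference was -4.97 (SE 0.59, adjusted p = 1.77e-04 by edgeR). In fresh water it had 15.7 to 31.9 CPM in freshwater fish and 65.7 to 927 CPM in marine fish, and the log2 difference there was -4.35 (SE 0.56, adjusted p = 3.46e-04 by edgeR).

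ENSGACG00000012477 had 2.17, 1.83, 2.18 and 1.25 CPM in freshwater fish 1 to 4, and 13.2, 24.995, 21.6 and 21.2 CPM in marine fish 2 to 5. Marine fish 2 was the lowest marine fish and still far above every freshwater fish. The log2 difference was -3.45 (SE 0.42, edgeR adjusted p = 1.84e-04). Its counts in every fish were multiples of 2, and dividing by 2 left the log2 difference at -3.45 (adjusted p = 1.76e-04 by edgeR). In fresh water it had 0.742 to 2.53 CPM in freshwater fish and 7.58 to 28.5 CPM in marine fish, and the log2 difference there was -3.13 (SE 0.42, adjusted p = 4.25e-04 by edgeR).

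**Figure D5:**
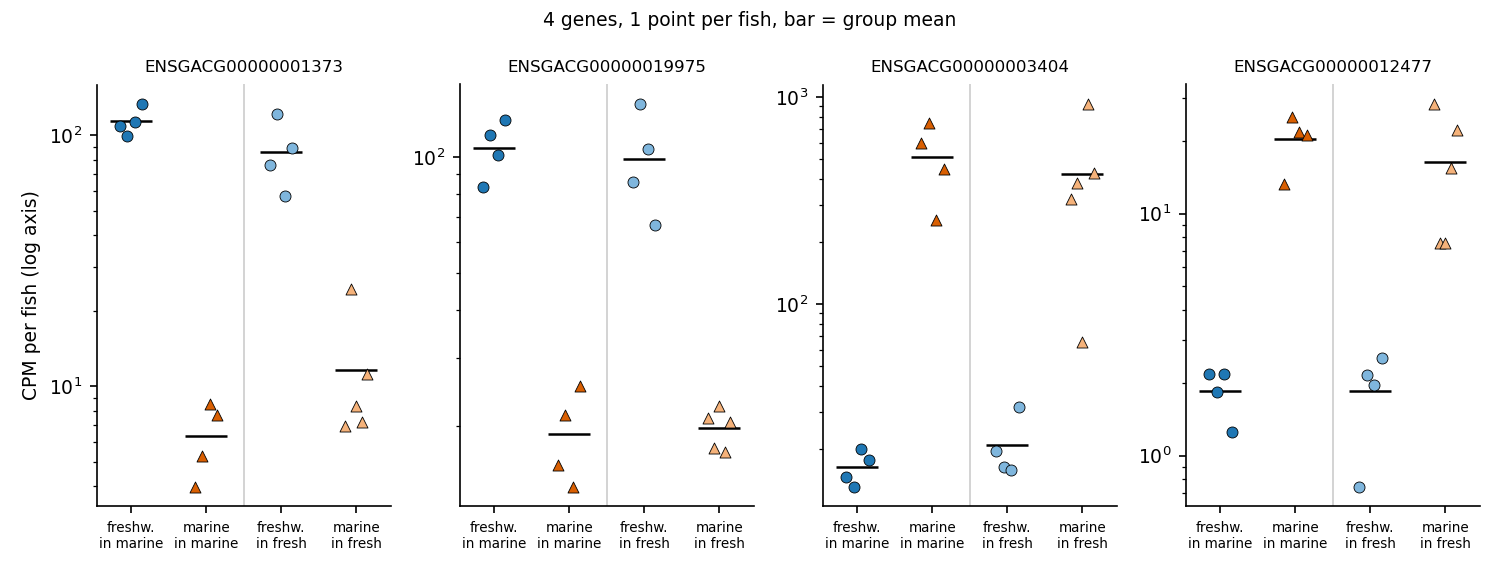
CPM of 4 genes on log axes, 1 point per fish and a bar at each group mean, with the 2 groups in marine water left of the grey line and the 2 groups in fresh water right of it. Freshwater fish are above marine fish in the first 2 genes and below them in the other 2, in both waters.

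For these 4 genes the difference between the populations was also set against itself in fresh water, as an interaction of population and water. The same contrast sets moved against kept fish over both populations, and these readings cannot be told apart. None passed: the marine-water difference minus the fresh-water difference was 1.23 log2 units for ENSGACG00000001373 (SE 0.47, edgeR adjusted p = 0.214), 0.15 for ENSGACG00000019975 (SE 0.30, edgeR adjusted p = 0.828), -0.62 for ENSGACG00000003404 (SE 0.69, edgeR adjusted p = 0.667) and -0.32 for ENSGACG00000012477 (SE 0.57, edgeR adjusted p = 0.799). These p-values do not show that the differences were equal. Over all 18238 tested genes 2 passed (0.0110%), 1 of them among the 4122 genes called in marine water. Without adjustment, 3141 of the 18238 had a p below 0.05 in the same edgeR test. That is a larger share than the 0.05 expected where no gene differs. Genes measured in the same fish are not independent, so this share does not say how many genes differ.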

How the data were processed

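Counts per gene were deposited by the authors as whole numbers, not normalized, in 1 table of 22456 Ensembl IDs and 17 fish, with 0 columns of no sample. The submitters' processing notes name CASAVA 1.8.2 and TopHat2 2.1.0. The counting tool, genome build and annotation were not given in the sources used here, and overlapping genes, gene copies and strand cannot be examined. Counts of 4873 of 17449 genes with over 200 counts (27.9%) were all multiples of the same whole number, 2 or larger, in the 17 fish. The counting error of these genes may exceed what their counts show.

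Groups followed the labels. Genes were kept by edgeR's filterByExpr (minimum count 10 by group), scaled by TMM, and all 4 groups were fitted together with edgeR 4.0.16 (glmQLFit, legacy set to false, and glmQLFTest, no covariates), with Benjamini-Hochberg adjustment at 0.05. SE is the log2 difference over the square root of F. CPM uses TMM scaling. A prior count of 2 was added for the log2 CPM of the principal components. Distances of single fish used log2(CPM + 0.5). The code was run on simulated counts with known changes and the same spread for every gene. These data differ from that setting, so the run does not measure error rates here. Fish are separate wild animals, and the labels do not tie fish of the same number in different groups to each other. The main fit therefore used no pairing. The spread between fish, not depth, sets the precision of abundant genes.

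The rule for named genes was the smallest p, 2 per direction, with a log2 difference over 2, at least 20 CPM and no overlap, since 0 of 22456 IDs matched the 52177 genes of the reference table. For that reason 0 of 15 gene lists could be tested. The comparison, lists and rule were chosen with earlier results of these data known. Alternatives were other scalings and filters, DESeq2 1.42.0, limma 3.58.1 voom, only the groups compared, a block for fish number, equal depth, division by shared divisors and each of the 8 fish left out. The older edgeR fit, which was run first and called 3816 genes, was replaced by the newer one to follow an earlier analysis of these data. It, leaving out marine fish 1 and 2 in fresh water, and the counts by abundance were added after seeing the data. R 4.3.3, Python 3.11.15 and matplotlib 3.10.9 were used.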

Additional observations from a re-analysis of the deposited data

Results flagged for a closer look

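In groups of 4 or 5 fish, a fish was picked out where its distance from the nearest other fish was large against the range of its group (Dixon's 95% limit). Of 38 groups examined, 4 had such a fish, and chance alone picks about 1 in 20. Total counts, genes detected and the shares of the 10 and 100 most abundant genes were examined in marine water only. In fresh water, where it was not examined, the share of the 10 most abundant genes was 19.4% in marine fish 2. It was 13.0% to 14.3% in the other marine fish there. In marine water, the 10 most abundant genes held 14.5% of the counts of marine fish 2, against 12.5% to 12.8% in the other 3 marine fish. The genes lower in freshwater fish held 26.0% of counts in marine fish 5, against 30.2% to 31.0% in the other 3. In fresh water, the genes higher in freshwater fish held 8.43% of counts in marine fish 3, against 7.24% to 7.55% in the other 4 marine fish. ENSGACG00000001373 was at 24.4 CPM in marine fish 2 in fresh water, against 6.95 to 11.2 CPM in the other 4, and still below the lowest freshwater fish. The causes were not tested.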

How the results depend on the processing

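The count of 4122 called genes stayed within 1.5 times in all 20 alternatives, from 2873 without marine fish 4 to 6131 with limma voom. It was 3503 at equal depth, 3431 with fish number as a replicate block, 3816 with the older edgeR fit, 4602 with a fit of the compared groups alone and 4847 with DESeq2. Leaving out 1 fish gave 2873 to 4800 called, 1283 to 2375 higher, 1456 to 2425 lower, and 921 to 1190 called in both waters. Limma voom gave 3039 higher genes, against 2007, and the cause was not tested. Fitting only the groups compared gave 510 genes called in both waters, against 1164. Each fit rested on fewer fish, but the one in marine water called more genes (4602), and the cause of the drop was not tested. Leaving out marine fish 1 and 2 in fresh water gave 897 genes called in both waters. The share of calls that were higher ranged from 44.7% to 52.5%. Called again in the same direction in every alternative were 1964 genes (47.6%), and 1 of the 4122 changed sign in 1 alternative (without marine fish 2). Some of the 4122 were filtered out before an alternative test and so could not be called again. The stricter filter tested 3594 of them and called 3587 again, and equal depth tested 3985 and called 3276 again. The 4 named genes passed in all 20 alternatives with their direction kept, but they had been chosen for a small p and groups without overlap. Genes at 0 in all freshwater fish and present in all marine fish numbered 18 at equal depth against 4. Thinning takes more counts from the deeper freshwater libraries. Because thinning only removes counts, the genes added to this number had counts in freshwater fish as deposited. The part of the unequal loss in the rise was not tested. In the lowest abundance class, equal depth left 160 higher and 85 lower calls, and the stricter filter 25 and 5. Deviations of same-numbered fish of the 2 groups correlated weakly (r = 0.07, 0.12 and 0.06 for numbers 2, 3 and 4). Pairs of unlike number ran from -0.16 to 0.10. Marine fish 2, 3 and 4 each deviated most like the freshwater fish of their own number. Freshwater fish 4 deviated more like marine fish 5 (r = 0.10) than its own number. The labels pair no fish, and whether the numbers mark a shared step of handling was not tested. Equal depth took the calls over all genes from 4122 to 3503, so genes outside the lowest abundance class lost calls too.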

Other observations

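The genes in which single fish stood apart were followed into the rest of the series. The 362 genes that marine fish 4 in marine water held more than 2-fold above the other 3 marine fish had a median of 3.72 CPM in it, against 0.765 to 1.01 CPM in marine fish 2, 3 and 5. Among fish the choice of genes did not use, marine fish 2 and 4 in fresh water had medians of 4.24 and 3.70 CPM for these genes. Marine fish 1, 3 and 5 in fresh water had 0.993, 1.03 and 1.76 CPM, and all 8 freshwater fish had 0.982 to 1.34 CPM. The sums over the set, to which abundant genes add most, were ordered differently. The summed level was 9830 CPM in marine fish 4 in marine water, and 6106 and 5470 CPM in marine fish 2 and 4 in fresh water. It was 7136 CPM in marine fish 3 in fresh water, and 8914 and 7620 CPM in freshwater fish 1 and 4 in fresh water. Marine fish 2, 3 and 5 in marine water had sums of 2127 to 2946 CPM, and freshwater fish in marine water 2517 to 4024 CPM. In fresh water, marine fish 1 and 5 had 6074 and 3471 CPM, and freshwater fish 2 and 5 had 5491 and 6010.5 CPM. The sums of marine fish 2 and 4 in fresh water were thus within the range of the other fish in fresh water. They were above all fish in marine water except marine fish 4.

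The 137 genes that marine fish 5 in marine water held more than 2-fold above the other 3 had a median of 10.5 CPM in it and 2.79 to 3.55 CPM in marine fish 2, 3 and 4. The 4 freshwater fish in marine water had 8.39 to 10.1 CPM for this set, the 4 freshwater fish in fresh water 6.24 to 10.2 CPM, and the 5 marine fish in fresh water 5.76 to 10.5 CPM. Marine fish 5, from which the genes were chosen, was at the top of the range of the other groups. Marine fish 2, 3 and 4 in marine water had the lowest medians of the series. The sums over the set had the same lowest fish, with 935 to 1444 CPM in marine fish 2, 3 and 4 in marine water and 2892 to 5758 CPM in all other fish. The genes were chosen for being lower in marine fish 2, 3 and 4 than in marine fish 5. Low values in those fish therefore come with the choice and are no separate result.

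The 107 genes that freshwater fish 3 in marine water held more than 2-fold above the other 3 freshwater fish had a median of 21.8 CPM in it, against 5.82 to 6.61 CPM in the other 3. The 4 freshwater fish in fresh water had 7.94 to 13.3 CPM, and the 9 marine fish of both waters had 4.25 to 5.89 CPM. The sum was 18449 CPM in freshwater fish 3, against 3897 to 4917 CPM in the other 3, from which the choice of genes set it apart. The 4 freshwater fish in fresh water had 6243 to 11081 CPM. The sum of freshwater fish 3 lay within the range of the marine fish in marine water and above all marine fish in fresh water. Marine fish 2, 3, 4 and 5 in marine water had 21471, 12347, 27719 and 18142 CPM, and marine fish in fresh water 4771 to 17388 CPM. What the fish in these sets share was not tested, and the IDs do not say what the genes do.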
